A study of Rattus norvegicus with 120 samples.

Results

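The genes described here are the solute carrier transporters of 9 families measured in the rat eye: Slc1, Slc2, Slc6, Slc7, Slc12, Slc16, Slc22, Slc38 and Slco. A gene was taken when at least 1 probe set of the array was annotated to its symbol alone, with Slc1a3, Slc2a1, Slc6a9 and Slc16a8 left out by rule, and each gene was represented by its probe set of highest mean. Of 97 such genes, 72 had a mean log2 signal of at least 4.283, the 25th percentile of all values, and these are the members among 12326 genes tested. The other 25 fell below that level and are accounted for by name further on. The members number 4 in Slc1, 7 in Slc2, 13 in Slc6, 11 in Slc7, 6 in Slc12, 8 in Slc16, 9 in Slc22, 7 in Slc38 and 7 in Slco. One of the 11 in Slc7 is Slc7a6os, a gene on the opposite strand to Slc7a6 that is not a carrier and enters by its symbol only.

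The animals were 120 male F2 rats of 12 weeks from an intercross of the inbred strains SR/JrHsd and SHRSP, 1 array per animal, with RNA of both whole eyes. There was 1 group, with no treatment and no control animals, so each comparison below is between animals. Genotypes were not used here. Each title carries an S code, 10 codes of 11 to 13 arrays, and an L code, 22 codes of 2 to 11 arrays, and the labels give the meaning of neither.

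Solute carriers move small molecules across membranes. Members of Slc1, Slc6, Slc7 and Slc38 carry amino acids, neurotransmitters, taurine and creatine. Slc2 proteins carry glucose and other sugars, Slc16 includes the lactate carriers, Slc12 proteins couple chloride to cations and set cell chloride, and Slc22 and Slco proteins carry organic ions, drugs and hormones. The retina clears glutamate and glycine through such carriers, takes up taurine in large amounts, and passes lactate between glia, pigment epithelium and photoreceptors. When amino acids run short, cells raise several amino acid transporters through the transcription factor Atf4.

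The 65 members called for the S code are 90.3% of the 72, against 92.8% of all genes, so the means of the S codes were removed before any other value was computed (limma moderated F test, Benjamini-Hochberg adjusted over 23326 probe sets, threshold 0.05). The array of animal 63 correlated least with the others, at a median of 0.911 over the tested probe sets. Animal 15 followed at 0.949, against a median of 0.982 over the arrays. The titles of 3 arrays mark a rescan, that of animal 63 among them and that of animal 15 not. Animal 63 was the lowest animal for 24 members and the highest for 11, so results are also given without animals 63 and 15 where they differ. The eye's defining transcripts were present on every array, with lowest log2 values of 13.08 for Sag of rods, 13.63 for Cryaa of the lens, 12.88 for Krt12 of the cornea and 8.58 for Rpe65 of the pigment epithelium. Acta1 of skeletal muscle was also present, from 11.40 to 12.36. In RNA from whole eyes, fewer cells of a type and less RNA per cell cannot be told apart.

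Variation between animals was modest for most transporters and large for a few amino acid and monocarboxylate carriers. The SD over the 120 animals ran from 0.10 log2 units for Slc7a6os to 0.55 for Slc16a7, with a median of 0.16 over the 72 members and 0.15 over all genes. The hybridisation controls, spiked in at fixed amounts, gave 0.20 as the median of 9 probe sets, and 52 of the 72 members had a smaller SD than that. The median over all genes, 0.15, lay below 0.20 as well. The Slc16 family had the largest median SD, 0.24 over 8 members, and Slc12 the smallest, 0.14 over 6. From the lowest to the highest animal 41 of 72 members ranged at least 2-fold, against 45.3% of all genes. Leaving out animals 63 and 15 gave 27 members, against 24.4% of all genes. Between the 6th lowest and the 6th highest animal it was 7 members, a count for which the share of all genes is not given here.

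**Figure D1:**
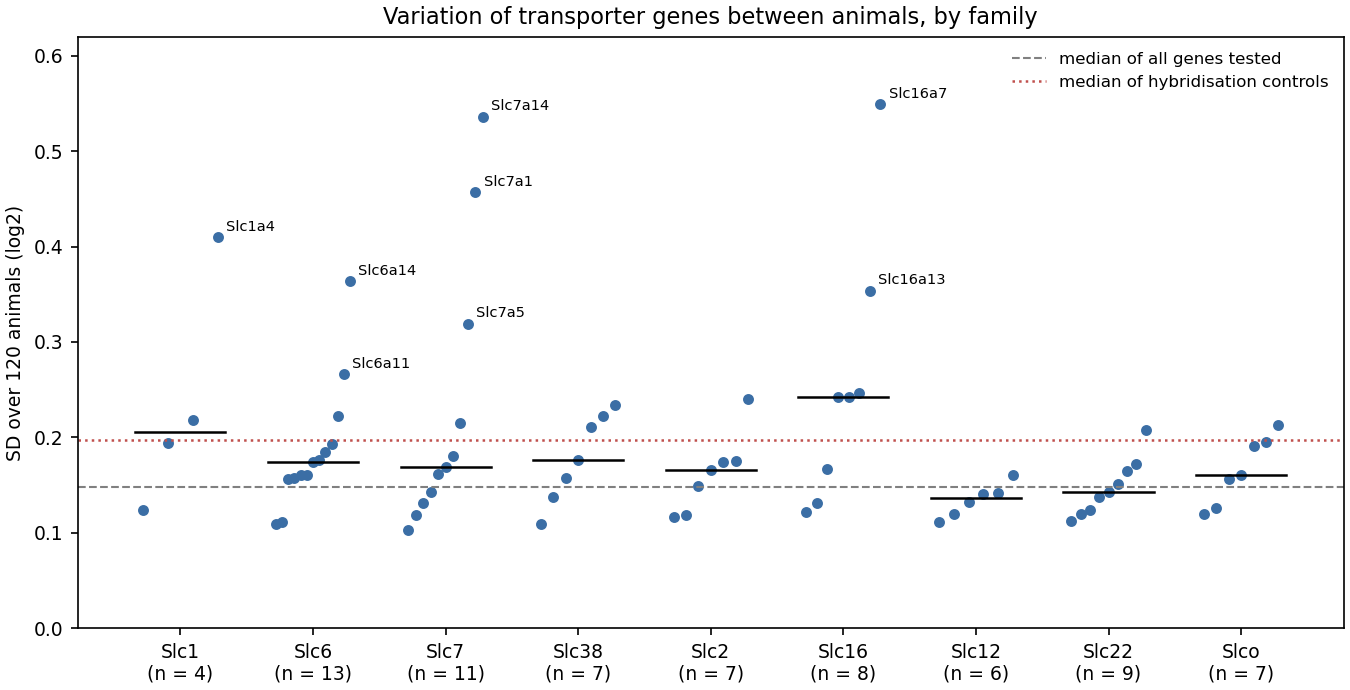
SD of each of the 72 transporter genes over 120 animals (log2 units, vertical axis) by family; points are genes, black lines family medians, and the 8 genes of largest SD are named. Most points lie under the dotted line of the hybridisation controls at 0.20, and Slc16a7, Slc7a14, Slc7a1 and Slc1a4 stand above 0.40.

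The monocarboxylate carrier Slc16a7, which takes up lactate and pyruvate, had the largest SD, 0.55. Its log2 level was 3.71 in the lowest animal, 5.13 in the median and 6.33 in the highest, a 6.13-fold range that was the same without animals 63 and 15. Its lowest value lay below the mean signal required of members. Over all animals Slc7a1 and Slc7a14 had wider ranges, and without animals 63 and 15 Slc7a14 still did, at 6.63-fold. Slc16a7 was called with neither the L code (adjusted p = 0.153) nor any of the scores described below. Slc7a14, a lysosomal relative of the cationic amino acid carriers whose mutations cause retinitis pigmentosa in people, ran from 3.64 through 4.75 to 6.34 with an SD of 0.54. Its SD fell to 0.21 after removal of the first 5 principal components of all genes, whereas that of Slc16a7 stayed at 0.44. Slc16a13, an orphan member of the lactate carrier family, ran from 4.73 through 5.44 to 6.72, with animal 63 the highest.

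Among the epithelial and neuronal carriers of Slc6, Slc6a14, which takes up neutral and cationic amino acids at epithelial surfaces, ran from 6.16 through 7.54 to 8.38. Animal 63 was its lowest animal and animal 22 followed at 6.28, while the 2 highest stood within 0.01 of each other, at 8.38 and 8.37. Slc6a11, the GABA transporter of glia, ran from 3.69 through 4.28 to 5.48, and Slc6a2, the noradrenaline transporter, from 3.87 through 4.30 to 5.74. Animal 63 was the highest for both, and without animals 63 and 15 the range of Slc6a2 fell from 3.66-fold to 1.95-fold and its SD from 0.22 to 0.18. The range of Slc6a11 without them was 3.20-fold, since another animal stood at 5.37.

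Of the remaining members of large SD, the insulin-responsive glucose transporter Slc2a4 ran from 5.98 through 6.63 to 7.15, with no single animal apart. The lysosomal amino acid sensor Slc38a9 ran from 4.47 through 5.43 to 6.33 and the lysosomal glutamine carrier Slc38a7 from 4.58 through 5.25 to 6.55; animal 63 was the lowest for the former and the highest for the latter. Slc16a6 ran from 7.02 through 8.03 to 8.56, Slc16a9 from 5.23 through 6.32 to 6.84, and the creatine carrier Slc16a12 from 6.93 through 7.78 to 8.35. The families with no member among the 15 of largest SD were led by Slc22a23, from 5.67 through 6.46 to 7.01, the prostaglandin carrier Slco2a1, from 6.91 through 7.53 to 8.14, and Slc12a8, from 4.93 through 5.33 to 5.997.

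**Figure D2:**
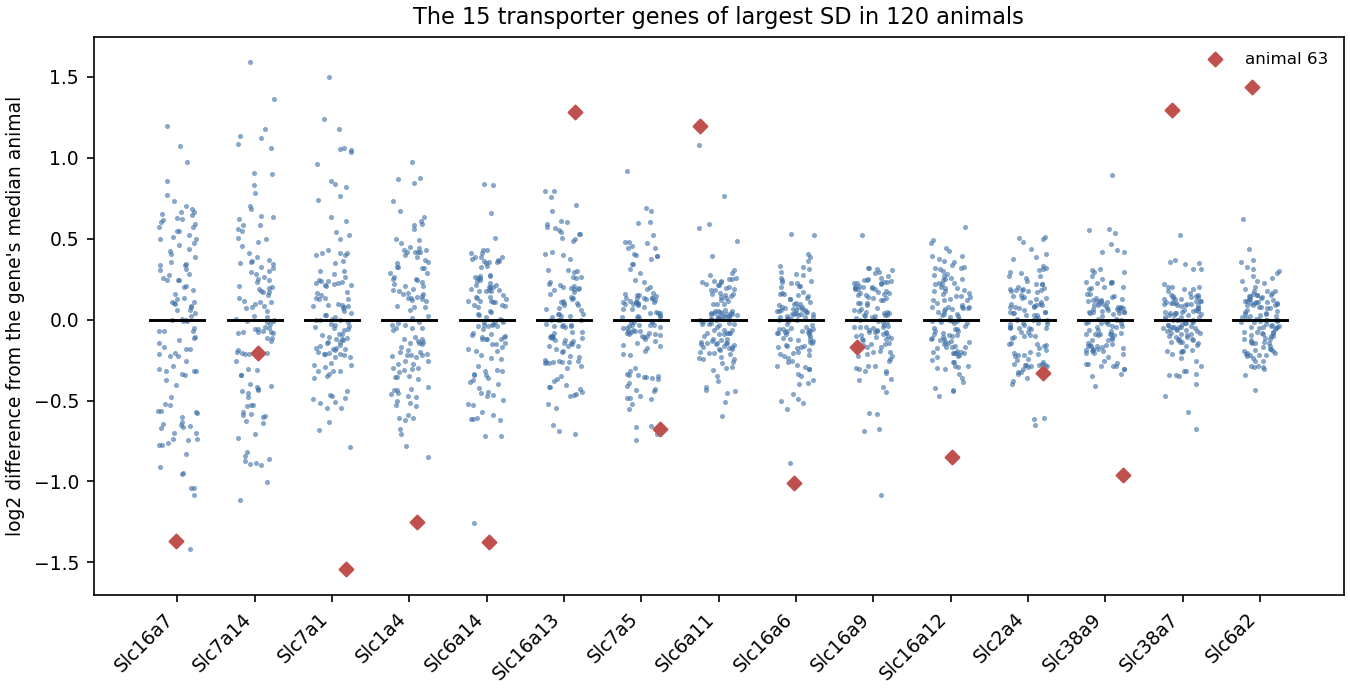
The log2 difference of each of 120 animals from the gene's median animal, for the 15 members of largest SD; diamonds mark animal 63 and lines the medians. Slc16a7 and Slc7a14 are spread evenly over the animals, while for Slc6a2 and Slc38a7 the diamond stands alone at the top.

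The transporters that moved together most were amino acid carriers, and they rose with the genes of the amino acid stress response. A score was made of 12 genes of that response that are no members: Chac1, Mthfd2, Asns, Psat1, Trib3, Ddit3, Atf5, Sesn2, Phgdh, Aldh1l2, Nupr1 and Stc2. Each gene was standardised over the animals and the mean scaled to an SD of 1, and each slope below is in log2 units per SD of the score (limma moderated t test with the S code as covariate, adjusted over all probe sets). In all, 9 of 72 members rose with the score, against 13% of all genes, and 5 of 72 fell, against 3.12% of all genes. The count is near the background. The median slope was -0.01 over the members and 0.00 over all genes. The leading members below were taken by the size of their slopes, and the share of all genes with slopes as large was not computed.

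Slc7a1, the main carrier of arginine and lysine into cells, ran from 6.37 in animal 63 and 7.13 in the next animal through a median of 7.91 to 9.41. Its slope was 0.35 ± 0.03 (SE, n = 120; limma adjusted p = 2.4e-20). Slc1a4, which exchanges serine, alanine and other neutral amino acids, ran from 5.77 in animal 63 through 7.03 to 7.997, with a slope of 0.35 ± 0.02 (SE; adjusted p = 5.6e-29). Slc38a2, the sodium-coupled glutamine and alanine carrier that amino acid shortage induces, ran from 9.26 in animal 63 through 10.15 to 10.66, with a slope of 0.16 ± 0.01 (SE; adjusted p = 9.7e-19). Slc7a5, the light chain of the large neutral amino acid exchanger, ran from 7.12 through 7.86 to 8.78, with a slope of 0.19 ± 0.02 (SE; adjusted p = 2.5e-10). Without animals 63 and 15 these 4 slopes were 0.33, 0.33, 0.15 and 0.19 and all passed, and with RNA quality as a covariate, taken from the 3' against 5' control probe sets of actin and GAPDH, they were 0.35, 0.35, 0.16 and 0.20. Slc7a1 has a second probe set, with a slope of 0.25 ± 0.02 (SE; adjusted p = 7.1e-18), and the 2 probe sets correlated at 0.707.

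The smaller rises belonged to Slc6a14 (0.10), the glutamate transporter Slc1a2 (0.08), Slc38a9 (0.07), the taurine transporter Slc6a6 (0.06) and the aromatic amino acid carrier Slc16a10 (0.06). Without animals 63 and 15 the rises of Slc6a14 and Slc38a9 no longer passed, at adjusted p = 0.081 and 0.072, and the other 3 did. The 5 that fell were Slc6a11 (-0.08), the glutamine carrier Slc38a3 (-0.06), Slc7a4 (-0.05), Slc12a8 (-0.05) and Slc22a17 (-0.03), of which Slc38a3 and Slc22a17 passed without animals 63 and 15. With those animals left out 15 members passed, 7 rising and 8 falling, against 15.1% of all genes in either direction.

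Other carriers known from the same response did not pass. The cystine and glutamate exchanger Slc7a11 had a slope of 0.03 (adjusted p = 0.282), the glutamine exchanger Slc1a5 one of 0.00 (adjusted p = 0.974) and the cationic carrier Slc7a3 one of -0.03 (adjusted p = 0.320). Of 14 measured partners of the carriers, among them heavy chains, chaperones, kinases and vesicular carriers, only Slc3a2, the heavy chain that Slc7a5 and Slc7a11 need at the cell surface, passed with this score, at 0.08 ± 0.01 (SE; adjusted p = 3.8e-11). The kinase gene Oxsr1 was next by p, at 0.04 (adjusted p = 0.064), and the chaperones of the lactate carriers, Bsg and Emb, had slopes of -0.01 each.

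**Figure D3:**
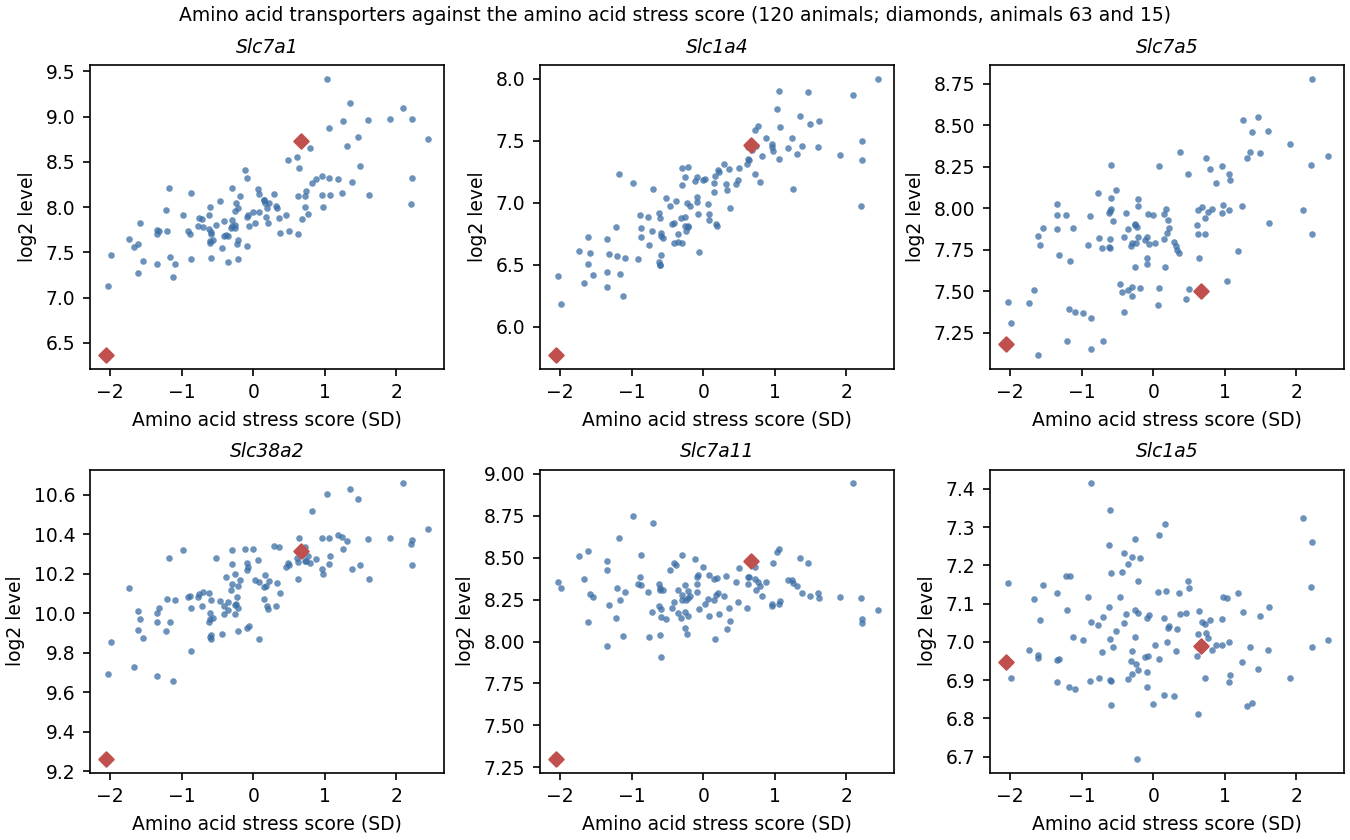
Log2 level of 6 amino acid transporters (vertical axes, S code means removed) against the amino acid stress score in SD units (horizontal axes) in 120 animals; diamonds are animals 63 and 15. Slc7a1, Slc1a4, Slc7a5 and Slc38a2 rise along the score, whereas Slc7a11 and Slc1a5 have slopes of 0.03 and 0.00.

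Because Slc1a4, Slc38a2 and Slc7a1 moved together, their promoters are shown, as the 250 bases before the gene start in RefSeq on the build GRCr8, written along the strand of the gene. Capitals mark matches on either strand to TGATGNAA, the core of the amino acid response element that Atf4 binds. The windows are chr12:11664238-11664487 on the plus strand for Slc7a1, chr14:98761563-98761812 on the minus strand for Slc1a4 and chr7:129742620-129742869 on the minus strand for Slc38a2.
Slc7a1: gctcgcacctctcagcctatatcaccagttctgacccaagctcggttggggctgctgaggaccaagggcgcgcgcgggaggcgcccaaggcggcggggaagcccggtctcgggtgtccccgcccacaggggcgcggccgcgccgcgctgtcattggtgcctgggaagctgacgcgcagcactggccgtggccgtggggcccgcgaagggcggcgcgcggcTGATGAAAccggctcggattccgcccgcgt
Slc1a4: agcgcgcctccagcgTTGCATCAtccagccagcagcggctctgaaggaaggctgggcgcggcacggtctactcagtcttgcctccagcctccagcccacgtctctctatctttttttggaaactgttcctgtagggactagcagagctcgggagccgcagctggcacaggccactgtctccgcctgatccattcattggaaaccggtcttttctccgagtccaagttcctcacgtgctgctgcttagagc
Slc38a2: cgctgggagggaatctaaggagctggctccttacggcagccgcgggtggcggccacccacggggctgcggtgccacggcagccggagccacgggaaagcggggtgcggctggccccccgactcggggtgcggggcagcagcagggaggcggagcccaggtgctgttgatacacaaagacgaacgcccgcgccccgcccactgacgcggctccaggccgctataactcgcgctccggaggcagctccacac

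The match lies at positions -30 to -23 in Slc7a1 and, on the opposite strand, at -235 to -228 in Slc1a4. The window of Slc38a2 holds none, nor do those of Slc7a5 and Slc7a11, which are not shown. A promoter was given for 55 of the 72 members. In such windows of 250 bases, 4 of the 55 held TGATGNAA on either strand, or 7.27%, against 3.27% of 27457 promoters. The other holders were Slc38a1, at -142 to -135, and Slco2a1, at -92 to -85, neither of which passed with the score. TGACNNNGC, the core of the antioxidant response element, lay on either strand of 8 of 55, or 14.5%, against 10.2% of all promoters. Slc7a1 held both motifs, and no match of one overlapped the other. A match of letters is a description and not a binding site.

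Pairs of these carriers made up 3 of the 4 largest correlations among the members. Over the 120 animals Slc1a4 and Slc38a2 correlated at r = 0.85 and rho = 0.84, Slc38a2 and Slc7a1 at r = 0.82 and rho = 0.78, and Slc1a4 and Slc7a1 at r = 0.78 and rho = 0.78. Each had a permutation p of 1e-05 for both coefficients, the smallest that 100000 permutations within the S codes can give, or 0.00015 for r and 0.00024 for rho after adjustment over 2556 pairs. Without the 2 animals farthest from the median the r were 0.83, 0.79 and 0.75. All 3 were positive within each of the 10 S codes, from 0.57 to 0.92 for the first pair, 0.26 to 0.93 for the second and 0.54 to 0.94 for the third, and with 5 principal components removed they were 0.64, 0.65 and 0.59. Of the 12 highest animals of each gene, 6 were shared by all 3, namely animals 20, 29, 39, 40, 47 and 65, and of the 12 lowest 5 were shared, namely 10, 22, 44, 54 and 63. Animal 20, the highest for Slc7a1 at 9.41, was at 7.56 for Slc7a5, below the median of that gene, and 3 of the 6 were among the 12 highest for Slc7a5.

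The same carriers rose with a score of 7 glucocorticoid-responsive genes (Fkbp5, Pdk4, Tsc22d3, Per1, Sgk1, Mt2A and Klf9). The slopes were 0.25 ± 0.03 (SE) for Slc1a4, 0.23 ± 0.04 for Slc7a1 and 0.15 ± 0.01 for Slc38a2, with limma adjusted p = 4.0e-10, 8.5e-07 and 1.4e-16. The glucocorticoid and amino acid stress scores correlated at 0.457 over the animals, given here as a description, and no fit held both. In all 17 members rose, against 33.1% of all genes, and 12 fell, against 8.58%; Slc6a11 (-0.11), Slc16a13 (-0.10) and Slc38a7 (-0.08) fell most. Leaving out animals 63 and 15, 11 rose and 4 fell, which is 15 of 72 against 20.2% of all genes, and of those 3 only Slc6a11 passed.

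Slc2a4, the glucose transporter of muscle and fat, rose with the skeletal muscle genes of the samples. A score of 11 skeletal muscle genes, among them Acta1, Ckm and Ryr1, gave a slope of 0.19 ± 0.01 (SE, n = 120; limma adjusted p = 4.5e-23), unchanged to 2 decimals without animals 63 and 15. Whether attached eye muscle accounts for this slope was not tested. Its second probe set, which correlated with the first at 0.23, had a slope of 0.05 ± 0.01 (SE; adjusted p = 0.013). The anion carrier Slco2b1 (0.09) and the orphan Slc22a23 (0.07) also rose, and Slc7a14 (-0.13), the kidney-type anion carrier Slc22a6 (-0.05) and the proline transporter Slc6a7 (-0.05) fell; of these 3 only Slc7a14 passed without animals 63 and 15, and with the RNA quality covariates it did not (adjusted p = 0.290). In all 11 members rose, against 19.3% of all genes, and 3 fell, against 2.23%. The counts without those animals were 6 and 1, or 7 of 72 against 9.5% of all genes. Leaving out S code 1, which holds animal 15, gave 25 called members. Leaving out S code 3, which holds animal 63, gave 3. The shares of all genes for these last counts were not computed, so they are not read as results about the members.

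Slc6a14 rose with genes of the surface epithelium of cornea and conjunctiva. With a score of 12 genes, among them the corneal keratin Krt12, Krt5 and Aldh3a1, its slope was 0.20 ± 0.03 (SE, n = 120; limma adjusted p = 6.0e-08), and 0.19 without animals 63 and 15 (adjusted p = 8.1e-06). Animal 63 was lowest both for the score and for Slc6a14. Slc7a1 (0.14) and Slc1a4 (0.14) rose as well and did not pass without the 2 animals, at adjusted p = 0.162 and 0.091. In all 17 members rose, against 25.6% of all genes, and 9 fell, against 6.17%; Slc38a7, Slc6a11 and Slc22a6 fell by 0.07 each and none of these passed without the 2 animals. In that fit only Slc6a14 and the neutral amino acid exchanger Slc7a8 rose and 4 fell, 6 of 72 against 7.02% of all genes.

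The rod score was made of 8 genes, among them Pde6b, Gnat1 and Sag. Slc7a14 rose by 0.19 ± 0.05 (SE, n = 120; limma adjusted p = 0.0023), Slc1a2 by 0.10 ± 0.02 (adjusted p = 2.0e-05) and Slc6a6 by 0.08 ± 0.01 (adjusted p = 3.2e-05), and all 3 passed without animals 63 and 15. Slc2a4 (-0.07), Slc22a23 (-0.06) and Slc22a24 (-0.05) fell, of which Slc22a24 did not pass without them and Slc2a4 not with the RNA quality covariates (adjusted p = 0.062). In all 7 members rose, against 8.79% of all genes, and 7 fell, against 6.81%. Leaving out the 2 animals gave 6 and 7, or 13 of 72 against 12.8% of all genes.

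**Figure D4:**
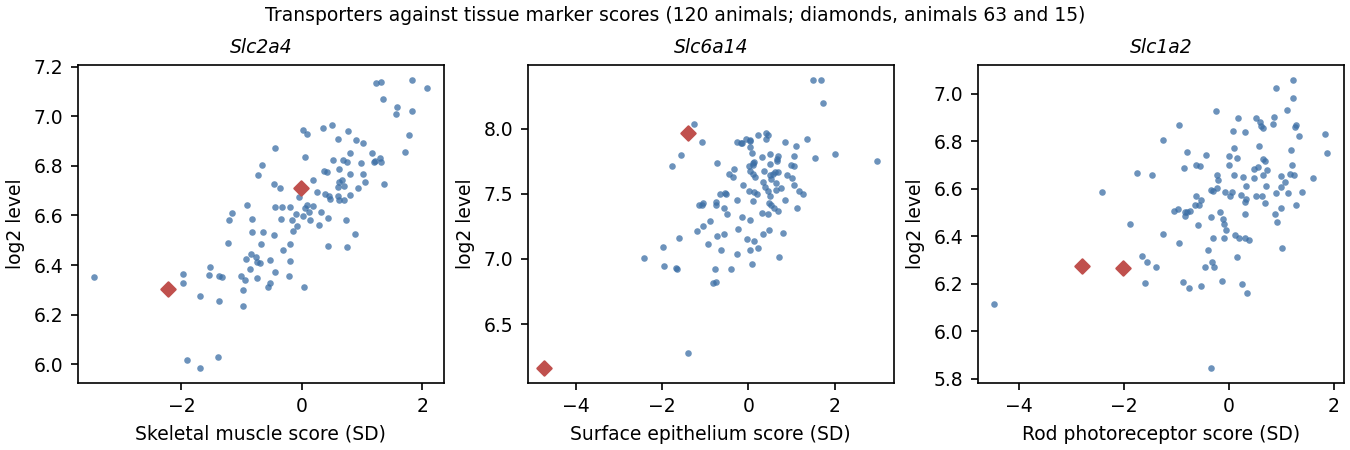
Log2 level (vertical axes, S code means removed) of Slc2a4 against the skeletal muscle score, Slc6a14 against the surface epithelium score and Slc1a2 against the rod score (horizontal axes, SD units) in 120 animals; diamonds are animals 63 and 15. The slopes are 0.19, 0.20 and 0.10 log2 units per SD, and animal 63 is the lowest point at the left of the Slc6a14 panel.

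The inner retinal score was made of 9 genes of bipolar, amacrine and ganglion cells. Slc6a17, the amino acid transporter of synaptic vesicles, rose by 0.12 ± 0.01 (SE, n = 120; limma adjusted p = 1.5e-13), Slc16a6 by 0.09 and the neuronal glutamine carrier Slc38a1 by 0.08. Slc6a17 and Slc38a1 passed without animals 63 and 15 and Slc16a6 did not, at adjusted p = 0.079. Neither other probe set of Slc38a1 passed with this score, at 0.02 (limma adjusted p = 0.378) and -0.03 (adjusted p = 0.169). The other probe set of Slc16a6 rose by 0.07 (adjusted p = 0.0012). Slc6a2 (-0.08), Slc6a7 (-0.07) and Slc6a18 (-0.07) fell, and none of them passed without the 2 animals. In all 24 members rose, against 36.2% of all genes, and 8 fell, against 7.93%; without the 2 animals 14 rose and 3 fell, 17 of 72 against 16.8%.

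Scores of supporting cells called many members and many of all genes. With 6 genes of Mueller glia, the radial glia of the retina, 38 members rose, against 50.1% of all genes, and 9 fell, against 12.1%. Slc16a12 (0.11), Slc6a14 (0.11) and Slc6a17 (0.11) rose most, Slc6a14 not passing without animals 63 and 15, and Slc7a14 (-0.20), Slc16a13 (-0.12) and Slc38a7 (-0.09) fell most, of which only Slc7a14 passed without them. With 5 genes of the retinal pigment epithelium 33 members rose, against 43.9%, and 7 fell, against 10.1%. The thyroid hormone carrier Slco1c1 rose by 0.10, Slc16a12 by 0.10 and Slc6a14 by 0.09, and Slc7a14 (-0.17), Slc6a2 (-0.09) and Slc38a7 (-0.08) fell; Slco1c1, Slc16a12 and Slc7a14 passed without the 2 animals. Without them 30 members were called with the Mueller glia score, against 41% of all genes, and 24 with the pigment epithelium score, against 30.2%.

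The endothelial score was made of 9 genes. Slc2a4, Slco2b1 and Slc22a23 rose by 0.09 each and the potassium chloride cotransporter Slc12a7 by 0.08 (SE 0.01, n = 120; limma adjusted p = 3.3e-08), and all 4 passed without animals 63 and 15. The other probe set of Slco2b1 fell with this score (-0.05, adjusted p = 0.049), and that of Slc2a4 did not pass (0.01, adjusted p = 0.548). Slc7a14 (-0.20), Slc38a7 (-0.08) and Slc6a7 (-0.06) fell, Slc6a7 not passing without them. In all 25 members rose, against 31.6% of all genes, and 4 fell, against 3.14%; without the 2 animals 24 of 72 were called, against 21.9%.

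The lens score of 8 genes called 7 members upward, against 17.4% of all genes, and 6 downward, against 5.64%. The carriers that rose most were Slc7a5 (0.08), the GABA and taurine carrier Slc6a13 (0.07) and Slc38a3 (0.06), and those that fell most were Slc22a24, Slc6a7 and Slc6a18, by 0.05 each. Slc6a13 and Slc38a3 were the 2 members called without animals 63 and 15, against 5.16% of all genes. The score of 4 orbital gland genes called 3 members upward, namely Slc6a13 (0.06), Slc7a8 (0.04) and Slc38a10 (0.04), against 12.3% of all genes. It called 2 downward, the neuronal chloride exporter Slc12a5 (-0.06) and Slc38a1 (-0.04), against 2.41%. Slc38a1 did not pass with the RNA quality covariates (adjusted p = 0.236), nor Slc38a10 without animals 63 and 15 (adjusted p = 0.056). Without the 2 animals 10 members were called, 4 rising and 6 falling, against 22.2% of all genes.

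A score of 12 genes of hypoxia and glycolysis, among them Ldha, Pgk1 and Vegfa, called 41 members upward, against 57.9% of all genes, and 13 downward, against 12.5%. The neuronal glutamate transporter Slc1a1 (0.11), Slc16a6 (0.10) and Slc16a12 (0.10) rose most, and Slc16a13 (-0.16), Slc7a14 (-0.16) and Slc38a7 (-0.12) fell most. All 6 passed without animals 63 and 15, when 36 of 72 members were called, against 47.3% of all genes. Slc7a14 did not pass with the 3' to 5' differences as covariates, at adjusted p = 0.100.

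The 3' to 5' difference of the actin control probe sets, a measure of RNA and labelling quality, moved with 46 of 72 members, against 54 for the score of hypoxia and glycolysis and 47 for that of Mueller glia. Of the 46, 36 rose, against 47.7% of all genes, and 10 fell, against 16.9%; without animals 63 and 15 it was 47 of 72, against 65%. Slc7a1 (0.14), the inositol carrier Slc2a13 (0.11) and Slc38a9 (0.11) rose most, and Slc7a14 (-0.25), Slc6a11 (-0.15) and Slc7a5 (-0.12) fell most. Slc7a1 and Slc7a5, which both rose with the amino acid stress score, lay on opposite sides here, and that score correlated with the actin difference at 0.05. Of the partners, the inositol carrier Slc5a3 (-0.40), the heavy chain Slc3a1 (-0.23) and the vesicular glutamate carrier Slc17a7 (-0.22) had slopes as large.

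By L code, levels differed for 10 of 72 members, or 13.9%, against 5.35% of all genes (limma moderated F test over 22 codes with the S code as covariate). At an unadjusted p under 0.05 there were 24. With S code 8 or S code 9 left out 4 were called, and with S code 6 left out 13. The shares of all genes for these further counts were not computed, so they are not read as results about the members. By role the 10 were the glutamate transporter Slc1a2, the amino acid carriers Slc1a4, Slc7a1, Slc6a18 and Slc6a7, the taurine transporter Slc6a6, the monocarboxylate carrier Slc16a6 and the organic anion carriers Slco1c1, Slco1a4 and Slco2b1. Again 10 were called without animals 63 and 15, against 6% of all genes, and 8 were shared. Slc6a18 and Slc6a7 were lost, at adjusted p = 0.199 and 0.279, and the neutral amino acid carrier Slc6a15 and Slc7a5 were gained. None of 14 partners was called, and 1 had an unadjusted p under 0.05, namely Slc3a2 (adjusted p = 0.095).

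Slc1a2, which clears glutamate from synapses, differed most by L code (adjusted p = 2.6e-06). Here and below each adjusted p is that of the F test over all codes. The codes set against each other are those of lowest and highest mean, taken after the values were seen. Whether they overlap is therefore a description only. Over all animals it ran from 5.84 through 6.58 to 7.06. The 4 animals of code 15 had a mean of 6.31, from 5.84 to 6.57, and the 6 of code 17 a mean of 6.83, from 6.53 to 7.06, 1.43-fold higher, and the ranges of these codes overlapped. The genes most like it over the 120 animals were Lpcat1 at r = 0.70, Snrnp200 at 0.70 and Srsf6 at 0.68. Slco1c1, which carries thyroxine across the blood-brain barrier, was next (adjusted p = 0.00032), from 7.49 as the mean of the 3 animals of code 13 to 8.05 in the 6 of code 8, and these codes did not overlap. The genes most like Slco1c1 were Hprt1, Prdm10 and Tmem150c, each at r = 0.69.

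Slc6a6, which loads photoreceptors with taurine, had a mean of 10.60 in the 4 animals of code 15, from 10.53 to 10.66, and 11.01 in the 7 of code 5, from 10.92 to 11.15, 1.33-fold higher with no overlap (adjusted p = 0.00065). Agpat3 at r = 0.70, Rrp1b at 0.69 and the rhodopsin kinase Grk1 at 0.66 were most like it. The widest differences between codes were those of Slc7a1, with means of 7.61 in the 3 animals of code 12 and 8.69 in the 3 of code 4, 2.11-fold (adjusted p = 0.033), and Slc1a4, with 6.53 in code 12 and 7.36 in the 5 animals of code 6, 1.79-fold (adjusted p = 0.012). Neither pair of codes overlapped. Code 4 holds animal 15, and Slc7a1 was called without animals 63 and 15 (limma adjusted p = 0.037). The second probe set of Slc7a1 was called as well (adjusted p = 3.0e-04), as were those of Slco1a4 (adjusted p = 0.024) and Slc16a6 (adjusted p = 0.015). Those of Slco2b1 (adjusted p = 0.269) and Slc6a6 (adjusted p = 0.373) were not.

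**Figure D5:**
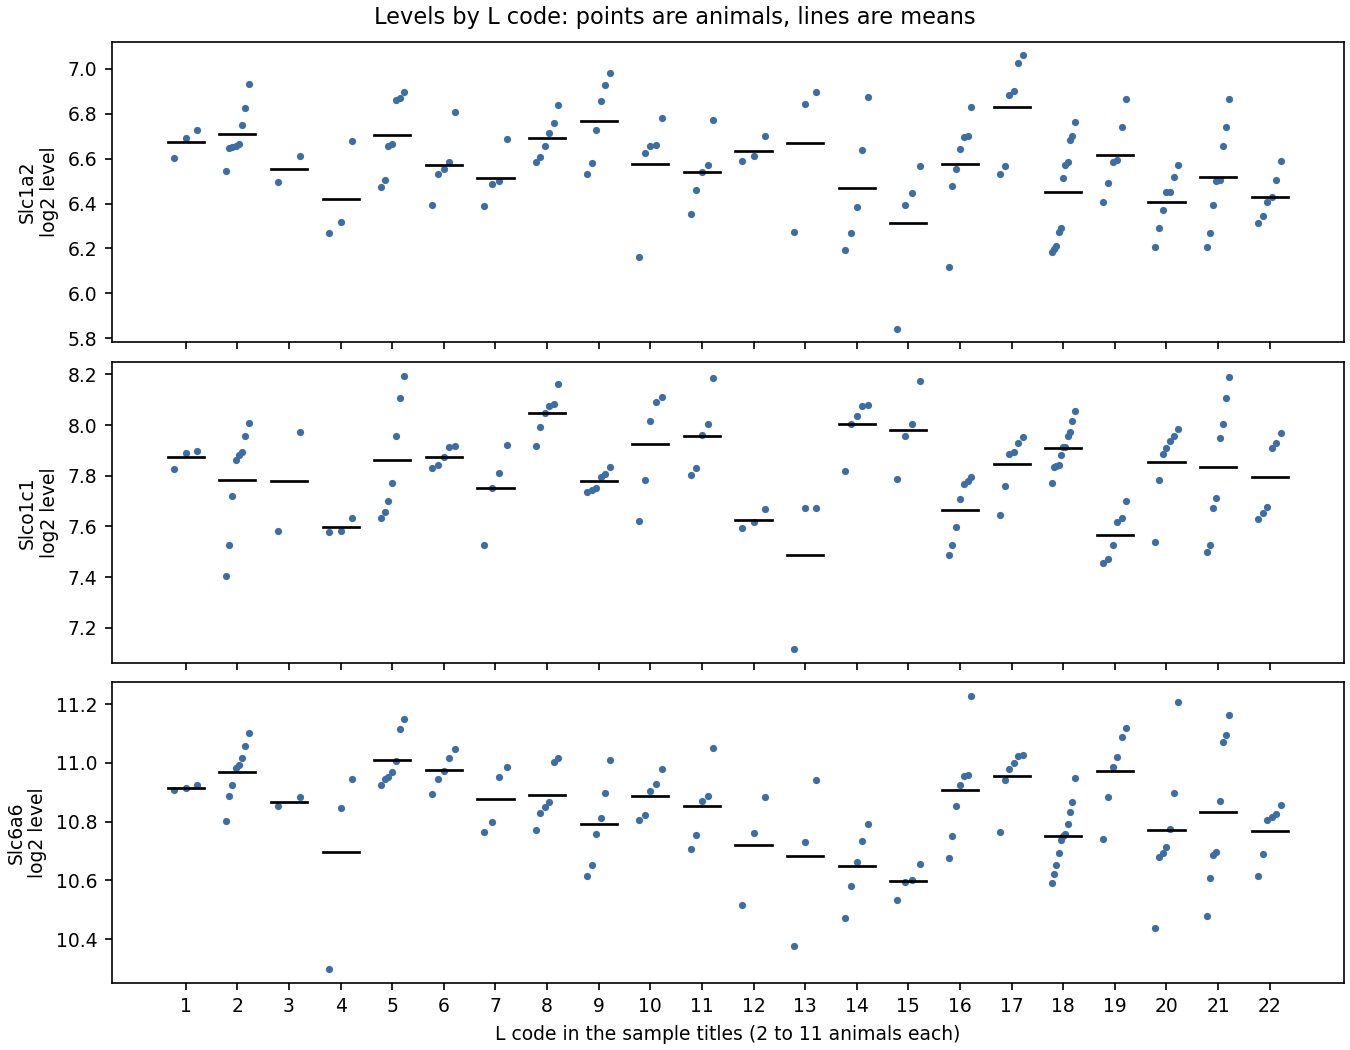
Log2 level of Slc1a2, Slco1c1 and Slc6a6 (vertical axes, S code means removed) by L code (horizontal axis, 22 codes of 2 to 11 animals); points are animals and lines code means. Code 15 is lowest for Slc1a2 and Slc6a6, and code 13 is lowest for Slco1c1, at 7.49.

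Slco1a4 had its lowest code mean in code 13, 8.33, and its highest in code 10, 8.80 (adjusted p = 0.0025), and Slco2b1 went from 6.49 in code 13 to 6.93 in code 12 (adjusted p = 0.031). Slc16a6 went from 7.71 in code 19 to 8.22 in code 11 (adjusted p = 0.011). Code 13 holds animal 63, which was the lowest animal for Slco1c1, Slco1a4 and Slco2b1, yet all 3 were called without animals 63 and 15, at adjusted p = 0.00077, 0.0032 and 0.0098. The epithelial carrier Slc6a18 (adjusted p = 0.024) and Slc6a7 (adjusted p = 0.0496) had their highest means in code 13, 4.74 and 4.87, and were lost without these animals.

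A gene under the control of 1 strong autosomal locus, with a different level for each genotype, should fall into 3 groups in a ratio of 1 to 2 to 1 in an F2 cross. A dominant allele, or a locus on the X chromosome in these males, gives other groups, and such control was not looked for. Such a mixture was preferred over 1 distribution, by more than 10 units of the Bayesian information criterion, for 0 of 72 members, against 0.138% of all genes. The nearest was the anion carrier Slco3a1, with a difference of 6.86. With the S code effects left in, 2 members passed.

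Over all 2556 pairs of members, 1001 correlated past the threshold, 624 positively and 377 negatively (permutation within S codes, Benjamini-Hochberg adjusted over the pairs). An absolute r of at least 0.21, the smallest that passed, was reached by 45.9% of member pairs, against 46% of all gene pairs. An r of 0.5 or more was reached by 83 member pairs, or 3.25%, against 5.91% of all gene pairs, and an r of -0.5 or less by 24, or 0.939%, against 1.1%. With 5 principal components removed 50 pairs passed. These shares lie at or under those of all genes.

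Beside the amino acid carriers, the largest positive correlation was that of Slc12a5 with Slc38a1, both of neurons, at r = 0.78 and rho = 0.65, and 0.71 without the 2 farthest animals. It was positive in all 10 S codes, from 0.54 to 0.97. Slc12a2, the chloride importer, correlated with Slc2a13 at r = 0.68 and rho = 0.57 and with Slc22a23 at r = 0.63 and rho = 0.52. Slc2a13 correlated with Slc38a1 at r = 0.67 (rho = 0.63) and with Slc7a11 at r = 0.65 (rho = 0.53), Slc38a9 with Slc7a11 at r = 0.66 (rho = 0.51), and Slc38a1 with Slco1c1 at r = 0.64 (rho = 0.60). All had a permutation p of 1e-05 for both coefficients (adjusted 0.00015 for r and 0.00024 for rho). Without the 2 farthest animals the pairs of Slc12a2 had r of 0.62 and 0.56, those of Slc2a13 0.60 and 0.58, Slc38a9 with Slc7a11 0.58 and Slc38a1 with Slco1c1 0.58. Within S codes Slc2a13 with Slc38a1 was positive in 9 of 10 and Slc38a9 with Slc7a11 in 8 of 10, and the others in all 10. With 5 principal components removed Slc12a5 with Slc38a1 kept r = 0.49 and Slc12a2 with Slc2a13 r = 0.45, while Slc2a13 with Slc38a1 and Slc38a9 with Slc7a11 had r of 0.00 and 0.03.

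The 5 largest negative correlations were those of Slc6a15 with Slc6a7 (r = -0.59, rho = -0.45), Slc6a7 with Slc7a11 (-0.58, rho = -0.23), Slc38a9 with Slc6a7 (-0.56, rho = -0.38), Slc38a7 with Slc7a11 (-0.56, rho = -0.32) and Slc16a6 with Slc6a18 (-0.56, rho = -0.49). The permutation p of r was at most 0.0001 in each (adjusted p at most 0.00089), and that of rho for Slc6a7 with Slc7a11 was 0.019 (adjusted 0.064). The 5 r without animals 63 and 15 lay between -0.38 and -0.46.

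Members that neighbour each other on a chromosome, with at most 5 protein-coding genes between them in RefSeq, were correlated in some cases only. Genes of other types were not counted. On chromosome 4 Slco1a4 and Slco1c1, with 1 gene between, had r = 0.56 (rho = 0.51), and Slco1a4 and Slco1a5 r = 0.48 (rho = 0.42), both with permutation p = 1e-05, adjusted 0.00015. Slco1a5 and Slco1c1 had r = 0.24 (permutation p = 0.016, adjusted 0.044), with rho = 0.15 (permutation p = 0.129). On chromosome 19 Slc7a6 and Slc7a6os, which share a locus, had r = 0.50 (rho = 0.39, permutation p = 1e-05, adjusted 0.00015). Sequence shared between the probes of the Slco1a genes was not examined. On chromosome 7 the adjacent Slc38a1 and Slc38a2 had r = 0.24 (permutation p = 0.015, adjusted 0.042) and rho = 0.15 (permutation p = 0.098), although each belonged to a strongly correlated pair with a gene elsewhere.

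On chromosome 1 the adjacent organic anion carriers Slc22a6 and Slc22a8 had r = -0.04 (permutation p = 0.630), Slc22a24 and Slc22a8 r = -0.07 (p = 0.472) and Slc22a24 and Slc22a6 r = 0.40 (permutation p = 0.0056, adjusted 0.019). That last value fell to 0.14 without animals 63 and 15. In the second cluster on chromosome 1, Slc6a18 and the dopamine transporter Slc6a3 had r = 0.27 (permutation p = 0.0051, adjusted 0.018), Slc12a7 and Slc6a18 r = -0.28 (permutation p = 0.027, adjusted 0.065) and Slc12a7 and Slc6a3 r = -0.12 (permutation p = 0.218). On chromosome 15 Slc22a17 and Slc7a8 had r = 0.07 (permutation p = 0.505).

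Different probe sets of 1 gene often disagreed, which bears on each value above. Of 23 pairs of probe sets, in 20 members, 4 correlated at 0.5 or more, 11 under 0.2 and 10 below 0. The same shares over all genes with several probe sets were not computed. Those under 0.2 belonged to Slc2a13 (-0.43), the lactate carrier Slc16a1 (-0.32), the creatine transporter Slc6a8 (-0.30), Slc1a1 (-0.28), Slc38a1 (-0.28 for both of its other probe sets), the neuronal glucose transporter Slc2a3 (-0.24), Slco2b1 (-0.22), Slc6a17 (-0.21 and -0.16) and Slco3a1 (0.17). The agreeing ones were those of Slc7a1 (0.71), Slc6a17 (0.64, its remaining probe set), Slco1a4 (0.63) and Slc16a13 (0.60). For Slc6a17 the agreeing probe set also rose with the inner retinal score (0.09, adjusted p = 1.3e-09), while 1 of the disagreeing ones fell (-0.03, adjusted p = 0.024). For Slco2b1 the other probe set did not pass with the muscle score (-0.03, adjusted p = 0.276) and went the opposite way with the endothelial score, as given above.

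The taurine transporter Slc6a6 has a second probe set that was singled out after its values were seen. It ran from 4.05 through 7.23 to 9.68, a 49.7-fold range with an SD of 1.05, and correlated with the first at 0.50. It was not called for the L code (adjusted p = 0.373). It rose with the rod score by 0.34 ± 0.09 (SE, n = 120; limma adjusted p = 0.0066), the direction of the first probe set, and fell with the Mueller glia score by 0.41 ± 0.09 (adjusted p = 5.7e-05).

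The 25 genes below the signal filter were Slc1a6, Slc2a2, Slc6a5, Slc6a20b, Slc7a2, Slc7a9, Slc7a12, Slc7a13, Slc12a1, Slc12a3, Slc22a3, Slc22a4, Slc22a7, Slc22a12, Slc22a13, Slc22a21, Slc22a25, Slc38a4, Slc38a5, Slco1a1, Slco1a3, Slco1a6, Slco1b2, Slco5a1 and Slco6b1. They include the kidney cotransporters Slc12a1 and Slc12a3 and the liver carriers Slc2a2 and Slco1b2. Just outside the filter lay Slc38a5 at a mean of 4.27, Slco5a1 at 4.20 and Slc6a5 at 4.19, and just inside Slc6a11 at 4.29, Slc6a2 at 4.32 and Slc22a24 at 4.35. Next inside were Slc6a7 at 4.36, Slc6a4 at 4.36 and Slc6a18 at 4.37. A gene near this line may be listed with a signal that is mostly background, and no detection calls were used.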

How the data were processed

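RNA of both eyes of 120 rats was hybridised to Affymetrix arrays, 1 animal per array. The authors deposited log2 expression values per probe set, made with RMA, per the submitters' processing notes, whose version is not given in the sources used here. RMA corrects background and equalises the distributions of arrays. No scanner files were used here, and no detection calls.

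Of 31099 probe sets, 57 were controls. Symbols came from GEO's platform annotation, updated through RefSeq: 20826 probe sets had 1 symbol, 436 several and 9780 none. The 23326 probe sets with a mean log2 of at least 4.283 were tested with limma 3.58.1 (R 4.3.3), Benjamini-Hochberg threshold 0.05, with the S code as covariate. The fits were tested on simulated data. Pairs of members were tested with 100000 permutations of animals within S codes (Python 3.11.15, numpy 2.4.6). The members and the gene lists were chosen with earlier results of these data known. Named genes are the 15 of largest SD, all called for the L code or the mixture, up to 3 per direction and score among those called, the 10 largest positive and 5 largest negative pairs, close neighbours, members with discordant probe sets, the leading member of each family, and the genes most like 3 members called for the L code. Nothing states that arrays are technical repeats, and the replicate is the animal; the number of arrays limits the precision.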

Additional observations from a re-analysis of the deposited data

How the results depend on the processing

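No paired analysis was possible because there is 1 group. Of 216 alternatives over all counts, 172 stayed within 1.5 times the first count and 44 did not. For the L code, 4 members were called at an adjusted p of 0.01, and 4 to 13 when each S code was left out in turn. The other alternatives for the L code gave 8 to 15. Without animals 63 and 15 the counts were 17 for the inner retinal neuron score, 30 for Mueller glia, 24 for retinal pigment epithelium, 2 for lens, 6 for surface epithelium, 7 for skeletal muscle, 10 for orbital gland and 15 for glucocorticoid. With no covariate they were 8 for rods, 6 for lens, 6 for muscle, 2 for gland and 8 for amino acid stress. With the L code as covariate they were 8 for rods, 6 for muscle, 8 for gland and 6 for amino acid stress. The RNA quality covariates gave 9 for muscle and 9 for gland. With each S code left out in turn the counts ran from 9 to 16 for rods, 17 to 41 for inner retina, 30 to 49 for Mueller glia, 23 to 43 for pigment epithelium, 7 to 16 for lens, 10 to 29 for surface epithelium, 3 to 25 for muscle, 4 to 8 for gland, 15 to 32 for endothelium, 11 to 17 for amino acid stress, 13 to 31 for glucocorticoid, 30 to 55 for hypoxia and 40 to 47 for the actin difference. The members ranging at least 2-fold numbered 27 without animals 63 and 15, 7 between the 6th animals from each end, 23 with S and L code effects removed and 13 with 5 principal components removed. The F2 mixture was called for 2 members with nothing removed and 0 under the other alternatives. Pairs past the threshold numbered 704 with Spearman's rho, 733 without animals 63 and 15, 1080 with S and L code effects removed and 50 with 5 principal components removed. S code 3 holds animal 63 and S code 1 holds animal 15. Where a count in this section has no share of all genes given further up, it is not read as a result about the members. Whether such a count changed more than that of all genes was not tested. The cause of the changes in these counts was not tested.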
